A study of Mus musculus with 40 samples.

Results

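The values of 10 cytokine genes were followed in mouse bone marrow-derived macrophages (BMDMs): Tnf, Il6, Il10, Il12a, Il12b, Il23a, Il27, Lif, Csf3 and Osm. They were looked up by gene symbol, and all 10 were found among the 43430 genes of the count table. A filter on low counts kept 11853 genes for testing, among them 9 of the 10 cytokines, and Il23a was left out by it. On mm10 (GRCm38), the genes lie at chr17:35199381-35202007 (Tnf, minus strand), chr5:30013161-30019968 (Il6), chr1:131019845-131024974 (Il10), chr3:68690644-68698547 (Il12a), chr11:44400063-44414033 (Il12b), chr10:128296140-128298084 (Il23a, minus strand), chr7:126589010-126594941 (Il27, minus strand), chr11:4257557-4272514 (Lif), chr11:98701263-98703629 (Csf3) and chr11:4236420-4241026 (Osm).

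BMDMs are macrophages grown in culture from marrow cells, here for 6 days with M-CSF. They came from 5 mice labelled VAV-Cre WT and 5 labelled VAV-Cre NDI1, both labelled with the strain C57/Bl6, of both sexes and 8 to 14 weeks old. In the study's methods, the line carrying NDI1 was of a mixed C57Bl/6J/N background and the controls were littermates. Both genotypes carried the Vav-iCre recombinase, which is active in blood-forming cells, and only the NDI1 mice had the yeast NADH dehydrogenase NDI1 behind a lox-stop-lox cassette. Piericidin A blocks complex I of the respiratory chain, and NDI1, which passes electrons from NADH to coenzyme Q, is not sensitive to it. Cells of each mouse were left untreated, given LPS, a bacterial cell wall component, at 100 ng per ml for 4 h, given piericidin A at 500 nM, or given piericidin A for 30 min and then LPS. How long the cells given piericidin A alone were exposed is not given in the sources used here. The comparisons ask whether piericidin A alters the cytokine response to LPS and whether NDI1 removes that change. The yeast gene itself is not a row of the mouse gene table and was not measured here.

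TNF is the ligand of the TNF receptors and one of the earliest products of macrophages that sense LPS through TLR4. IL-6, leukaemia inhibitory factor (Lif) and oncostatin M (Osm) signal through receptors that share the chain gp130 and activate STAT3. IL-12 and IL-23 are pairs of chains that share the p40 chain (Il12b), joined to p35 (Il12a) or p19 (Il23a), and IL-27 joins p28 (Il27) to the Ebi3 protein. IL-10 restrains inflammatory gene expression in macrophages through STAT3. Csf3 encodes the growth factor G-CSF, which drives neutrophil production.

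The 40 libraries held between 6950748 and 13552070 counts, with a median of 10361773.5. Levels are given as CPM, a gene's count relative to the library's total after scaling with TMM factors. Summed over 8 macrophage markers, CPM lay between 19674 and 38691 in every library, and 5 T cell markers summed to at most 15.0 CPM, nearly all of it from Lck, the one T cell marker that passed the filter, which rose with LPS. Mouse 496 (WT) and mouse 503 (NDI1) stood apart from the others of their genotype on the second principal component. In all 8 groups, the highest sum of 8 neutrophil markers came from mouse 496 or mouse 503, up to 2649 CPM against a median of 158 CPM in WT given LPS and piericidin A. The highest sums of 4 stroma, 4 dendritic cell and 3 mast cell and basophil markers came from the same mice in all 8 groups, and that of 4 B cell markers in 7 of 8. In WT given LPS and piericidin A, the dendritic cell markers reached 31.5 CPM in mouse 496 against a median of 9.47 CPM. In these bulk libraries, fewer cells of a type and less RNA per cell cannot be told apart.

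The RefSeq promoter table (GRCm38.p6) held 5 of the 10 genes, and the 250 bases before the start site are shown for the 4 whose data are followed most closely below: Lif and Tnf, which rose with piericidin A alone, and Il6 and Il12b, which rose most with LPS among these 5. Capitals mark matches, on either strand, to the kB motif (GGG, any 2 bases, TTTCC), the AP-1 motif TGANTCA, the cAMP response element TGACGTCA or the C/EBP-ATF response element TGATGNAA. No match overlapped another.
Lif, chr11:4257318-4257567, plus strand: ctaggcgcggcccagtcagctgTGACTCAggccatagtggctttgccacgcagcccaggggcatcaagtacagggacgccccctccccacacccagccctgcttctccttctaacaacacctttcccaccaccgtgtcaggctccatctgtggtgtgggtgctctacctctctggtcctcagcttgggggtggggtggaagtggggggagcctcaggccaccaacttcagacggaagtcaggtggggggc
Tnf, chr17:35202008-35202257, minus strand: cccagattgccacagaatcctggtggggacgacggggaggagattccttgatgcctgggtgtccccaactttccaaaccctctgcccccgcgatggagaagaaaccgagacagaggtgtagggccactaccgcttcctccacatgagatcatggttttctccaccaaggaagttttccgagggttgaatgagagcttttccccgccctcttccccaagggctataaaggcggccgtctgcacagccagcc
Il6, chr5:30012864-30013113, plus strand: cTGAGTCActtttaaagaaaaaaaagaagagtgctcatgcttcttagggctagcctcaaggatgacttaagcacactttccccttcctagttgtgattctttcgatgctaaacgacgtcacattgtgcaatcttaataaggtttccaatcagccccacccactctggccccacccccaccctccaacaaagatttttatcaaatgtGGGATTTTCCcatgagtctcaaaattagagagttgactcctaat
Il12b, chr11:44399813-44400062, plus strand: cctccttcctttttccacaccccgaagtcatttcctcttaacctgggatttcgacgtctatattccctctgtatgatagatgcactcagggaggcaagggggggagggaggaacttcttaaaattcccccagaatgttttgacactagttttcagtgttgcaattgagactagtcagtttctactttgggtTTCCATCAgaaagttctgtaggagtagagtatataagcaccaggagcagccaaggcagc
Il6 held a kB match that began 44 bases before the start and an AP-1 match 249 bases before it. Lif held one AP-1 match, 228 bases before the start, and Il12b held one C/EBP-ATF match, 59 bases before it on the opposite strand. Tnf held none of these letters in this window. Of 32851 promoter windows of the same length, 1.41% held the kB motif, 6.75% the AP-1 motif, 1.55% the cAMP element and 3.45% the C/EBP-ATF element. A match describes the letters only.

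LPS raised nearly all of these genes from very low levels. In WT, 8 of the 9 tested genes rose and none fell, where 31.5% of all tested genes rose. Of the 9, 6 (Il6, Il12a, Il12b, Il27, Lif and Csf3) would not have passed the filter on low counts on the 20 libraries without LPS. Il6, Il12a, Il12b, Il27 and Csf3 were tested because they were high with LPS. Lif passed on 5 libraries with LPS and 3 with piericidin A alone, and nearly all of these were WT given piericidin A. The count of members and the LPS p-values of these 6 genes are therefore a description. The count is not read against the share of all genes. The other 3, Tnf, Il10 and Osm, passed it on those libraries, and of them Tnf and Il10 rose with LPS in both genotypes. In NDI1, 7 of the 9 rose, with 31.5% of all genes rising. With piericidin A present, LPS raised 7 of the 9 in WT and lowered 1, Osm, where 25.8% of all genes rose and 26.2% fell. In NDI1 with piericidin A, LPS raised 7 of the 9, where 30.6% of all genes rose. The test for a different LPS effect in the 2 genotypes called 0 of the 9 genes and 0% of all genes in edgeR, with 63 genes and 0 of the 9 at an unadjusted p under 0.05, and 0 genes in DESeq2.

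**Figure D1:**
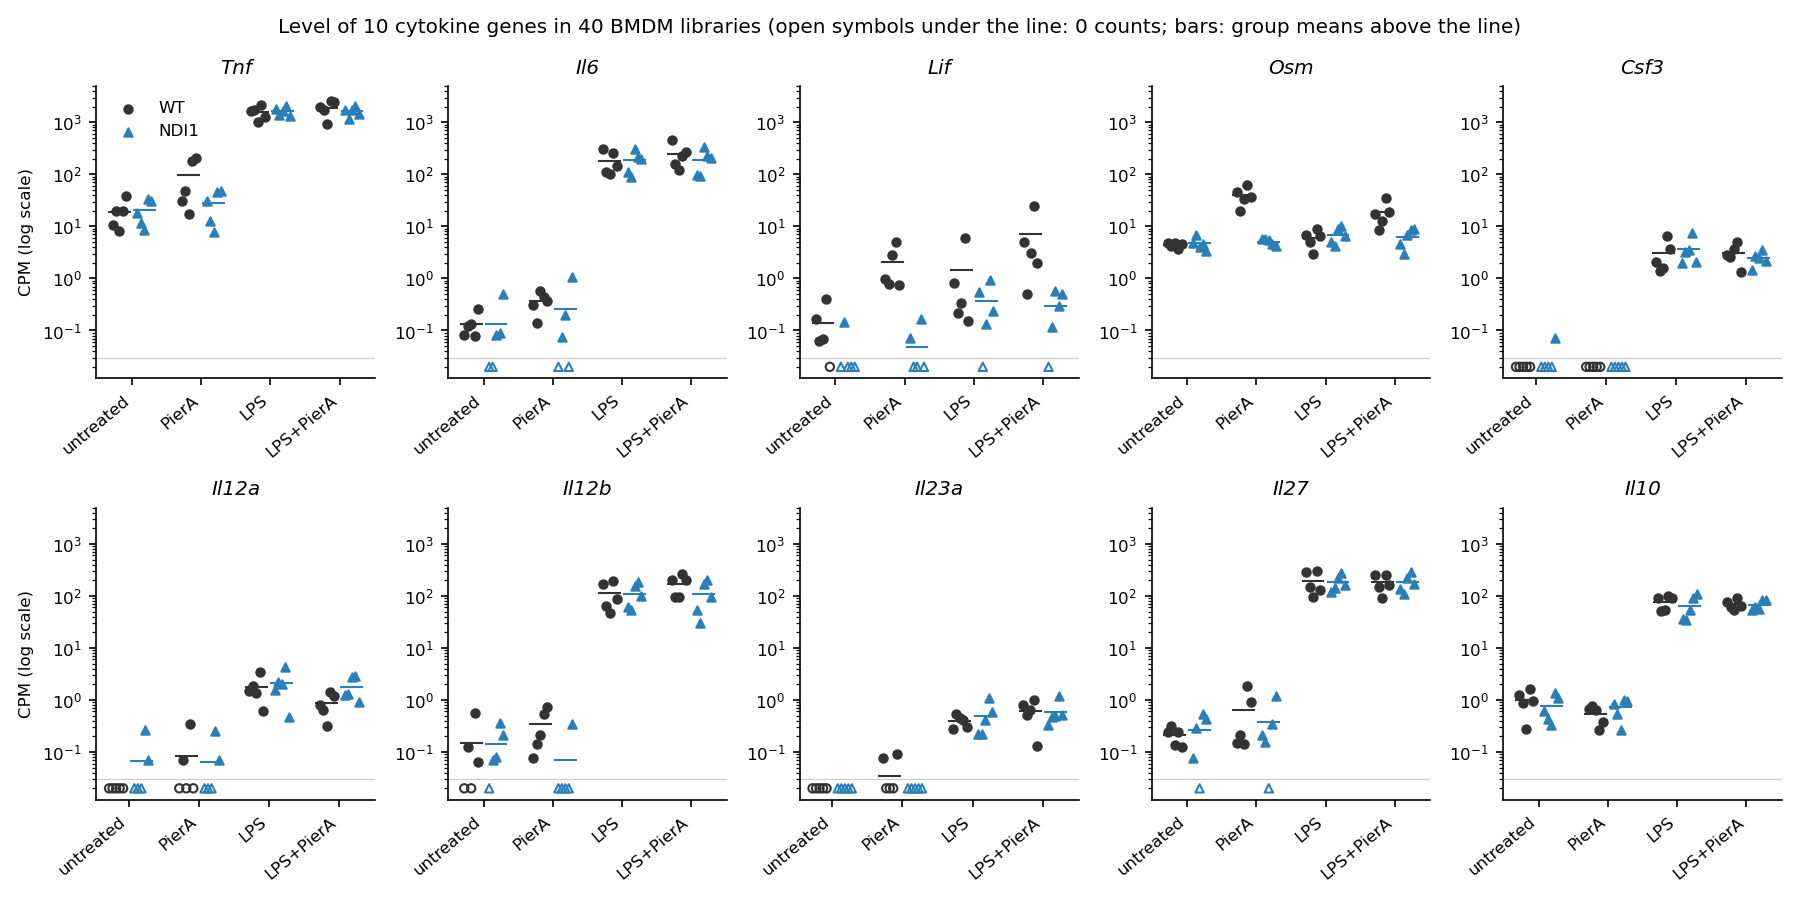
Level of each gene in CPM, on a log axis, in the 40 libraries by treatment (PierA, piericidin A), with WT as circles, NDI1 as triangles, group means above the line as bars and libraries at 0 counts as open symbols under the line. Groups with LPS lie above their counterparts without it, with no overlap, for 7 of the 10 genes (Osm, Lif and, in WT with piericidin A, Il12a are the exceptions), and piericidin A lifts Osm, Lif and, without LPS, Tnf in WT.

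Tnf was by far the most abundant of the 10. In untreated WT, the 5 libraries had 7.99, 10.6, 19.4, 19.5 and 38.7 CPM. In WT given LPS, they had 1019.8, 1281, 1656, 1706 and 2116 CPM. Every library with LPS lay far above every library without it, a log2 fold change of 6.33 (SE 0.61, adjusted p = 2.2e-11). In NDI1, the log2 fold change was 6.32 (SE 0.61, adjusted p = 2.3e-11). Per kb of exon, with lengths from GENCODE M21, the Tnf level in WT given LPS was 949 CPM per kb ± 257 (SD, n = 5), followed by Il27 at 189 ± 93.2, Il6 at 75.7 ± 36.9, Il10 at 58.2 ± 17.5 and Il12b at 56.7 ± 33.0. Tnf lay above Il27 in every library, whereas neighbours from Il27 to Il12b in this order overlapped. Osm at 2.68 ± 0.983, Csf3 at 2.15 ± 1.54, Il12a at 1.02 ± 0.614, Lif at 0.341 ± 0.571 and Il23a at 0.175 ± 0.0476 CPM per kb came next. The ranges of neighbours from Osm to Il23a in this order overlapped. With the lengths of the deposited table instead, 5 of these 10 ranks changed, those of Osm, Csf3, Il12a, Lif and Il23a.

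Among the ligands of gp130 receptors, Il6 rose most with LPS. Il6 in untreated WT lay between 0.0795 and 0.254 CPM, which were 10 counts over the 5 libraries. In WT given LPS, the 5 libraries had 103, 112, 146, 254 and 303 CPM, a log2 fold change of 10.25 (SE 0.67, adjusted p = 9.3e-16). The fold over summed counts was 1267, with an exact 95% counting interval of 689 to 2643. In NDI1 the log2 fold change of Il6 was 10.27 (SE 0.68), and 11.80 without mouse 521.

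Lif rose with LPS in WT by 3.38 on the log2 scale (SE 1.05, adjusted p = 0.0056). Untreated WT had 0, 0.0623, 0.0677, 0.163 and 0.397 CPM of Lif, and WT given LPS had 0.151, 0.214, 0.335, 0.817 and 5.90 CPM. The highest value in each group came from mouse 496, and the groups overlapped. Without mouse 496, the log2 fold change was 2.27 and no longer passed the test (adjusted p = 0.065). In NDI1 the log2 fold change of Lif was 3.16 (SE 1.53, adjusted p = 0.070), which passed with the mouse as a block (adjusted p = 0.011, where 72.4% of all genes were called). It also passed without mouse 496 (3.16, adjusted p = 0.012) and without mouse 460 (5.35, adjusted p = 0.033), and was 2.34 without mouse 503 (adjusted p = 0.29). Of 19 alternatives 5 passed, and the adjusted p lay between 0.011 and 0.29. In WT with piericidin A, LPS went with a Lif log2 fold change of 1.78 (SE 0.77, adjusted p = 0.051), which passed with the block (adjusted p = 0.0039, where 62.5% of all genes were called). It also passed without mouse 453 (2.11, adjusted p = 0.045) and was 0.96 without mouse 496 (adjusted p = 0.19). Of 19 alternatives 4 passed, and the adjusted p lay between 0.0039 and 0.19. In NDI1 with piericidin A, it was 2.53 (SE 1.45, adjusted p = 0.13), which also passed with the block (adjusted p = 0.023, where 71% of all genes were called). It also passed without mouse 496 (2.54, adjusted p = 0.033), and was 3.48 without mouse 503 (adjusted p = 0.11) and 1.84 without mouse 461 (adjusted p = 0.38). Of 19 alternatives 4 passed, and the adjusted p lay between 0.022 and 0.38.

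Osm was already present before LPS and did not pass the test for LPS. Untreated WT had between 3.66 and 4.81 CPM and WT given LPS between 2.90 and 8.92 CPM, a log2 fold change of 0.44 (SE 0.33, adjusted p = 0.24). In NDI1 it was 0.54 (SE 0.32, adjusted p = 0.15), and it passed without mouse 460 (0.83, adjusted p = 0.036) in 1 of 19 alternatives, with adjusted p between 0.036 and 0.58. The direction depended on the scaling. In CPM without TMM factors, mean Osm went from 5.84 untreated to 4.56 with LPS in WT, and from 6.26 to 5.30 in NDI1. In WT with piericidin A, Osm was lower with LPS than without it in 5 of 5 mice and fell by 1.11 on the log2 scale (SE 0.29, adjusted p = 0.0015).

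Csf3, which lies outside the gp130 family, was at 0 counts in all 5 untreated WT libraries and all 10 libraries given piericidin A alone. WT given LPS had 1.39, 1.56, 2.04, 3.63 and 6.59 CPM, and NDI1 given LPS had 1.98, 2.11, 3.16, 3.51 and 7.50 CPM. Against a floor of 3 counts over the 5 untreated WT libraries, Csf3 was at least 68.6-fold higher with LPS in WT. In untreated NDI1, a single count was seen in 5 libraries, and the ratio was 229, with a 95% counting interval of 40.4 to 9088.

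Within the IL-12 family, Il12b and Il27 rose to high levels and the partner chains Il12a and Il23a stayed low. Il12b in WT rose from between 0 and 0.556 CPM to 46.3, 62.8, 88.6, 168 and 192 CPM, a log2 fold change of 9.52 (SE 0.73, adjusted p = 5.5e-14) that was 10.52 without mouse 496. Il27 in WT rose from between 0.127 and 0.311 CPM to 96.4, 129, 151, 290.3 and 300.5 CPM, a log2 fold change of 9.77 (SE 0.60, adjusted p = 1.6e-16). Il27 shares exonic positions with Apobr on the other strand. Whether the counts are stranded is not given in the sources used here, so the Il27 values are less certain. Il12a was at 0 in all 5 untreated WT libraries and had 69 counts over the 5 with LPS, at least 41.5-fold more than the floor of 3 counts allows. Il23a was at 0 in all 10 untreated libraries, had 16 counts over the 5 WT libraries given LPS and 20 over the 5 NDI1 libraries, at least 9.63-fold and 10.4-fold more than the floor. In a fit with no filter on low counts, Il23a passed the test for LPS in WT (adjusted p = 2.5e-05) and in NDI1 (adjusted p = 1.2e-05).

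Per kb of exon, Il12b outnumbered Il12a in each of the 20 libraries with LPS. The ratio of Il12b to Il12a had a median of 48.5 in WT given LPS, between 29.9 and 126, and a median of 164 with piericidin A, between 129 and 255. The lowest ratio with piericidin A thus lay above the highest without it in WT. In NDI1 given LPS, the median was 37.4, between 20.5 and 182, and with piericidin A 54.5, between 19.9 and 88.9. These ratios rest on 2 to 32 counts of Il12a per library, and the ratio was not tested. The ratio of Il12b to Il23a, which rests on 1 to 8 counts of Il23a per library, had medians of 334 and 287 in WT and 271 and 191 in NDI1, without and with piericidin A. With the lengths of the deposited table, the ratios of Il12b to Il12a would be 2.00 times and those of Il12b to Il23a 0.313 times the values given, in every group alike. Il27 and its partner Ebi3 were of the same order, with median ratios of 1.57 and 2.57 in WT and 1.85 and 2.14 in NDI1.

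**Figure D2:**
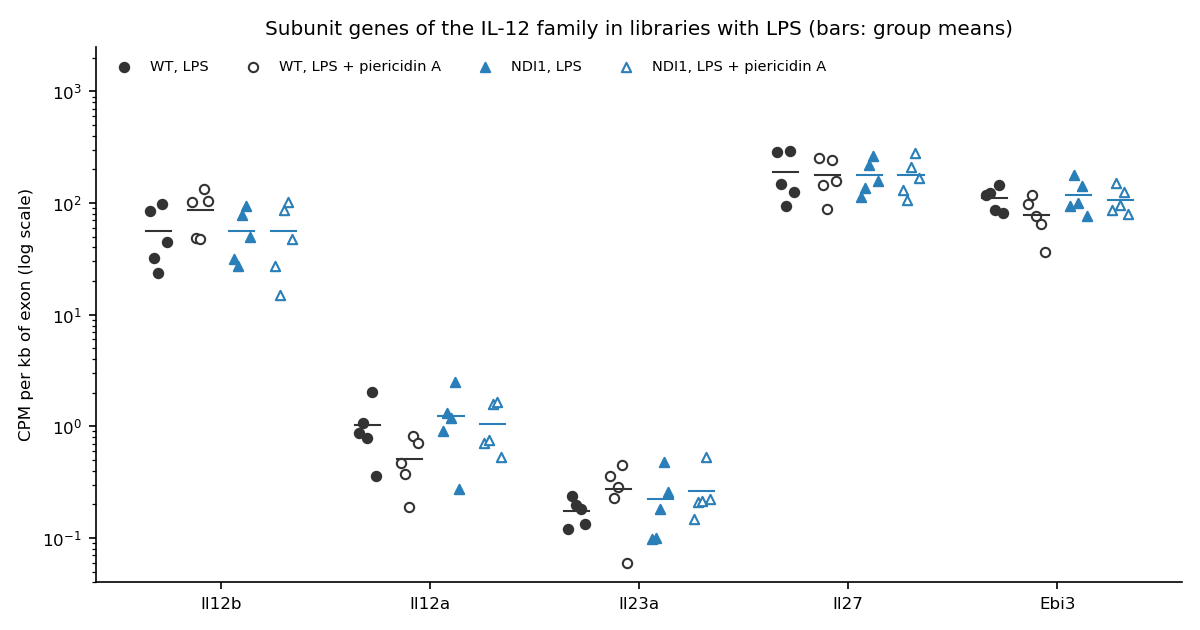
Levels of the chains of IL-12, IL-23 and IL-27 in CPM per kb of exon, on a log axis, in the 20 libraries with LPS, with WT as circles and NDI1 as triangles, filled without and open with piericidin A, and bars at group means. Il12b does not fall under 15.1 CPM per kb, Ebi3 under 36.1 or Il27 under 89.3 in any library, whereas Il12a reaches at most 2.52 and Il23a 0.532.

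Il10 rose with LPS to a level near that of Il12b per kb. Untreated WT had 0.271, 0.872, 0.952, 1.22 and 1.59 CPM, and WT given LPS had 50.3, 52.5, 89.9, 90.2 and 98.4 CPM. The groups did not overlap, and the log2 fold change was 6.29 (SE 0.37, adjusted p = 2.9e-17). With piericidin A before LPS, WT had 54.3, 60.9, 64.5, 77.6 and 92.1 CPM, all within the range seen with LPS alone. The difference was -0.12 on the log2 scale, with a 95% interval of -0.66 to 0.41. In NDI1, Il10 was between 35.0 and 107 CPM with LPS and between 53.4 and 83.3 CPM with both, a difference of 0.053 with an interval of -0.48 to 0.59.

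Piericidin A alone raised 3 of the 9 tested genes in WT, namely Osm, Lif and Tnf, where 7.79% of all tested genes rose. Another 5, Il6, Il12a, Il12b, Il27 and Csf3, had at most 15 counts over the 5 untreated WT libraries. Over the 5 given piericidin A, these genes had at most 38. Lif passed the filter on 8 libraries, of which none was untreated or NDI1 and nearly all were given piericidin A. Under LPS, piericidin A raised 2 of the 9 in WT, Osm and Lif, where 7.81% of all genes rose. Since Lif was tested because it was high with piericidin A in WT, both counts are a description. They are not read against these shares. In NDI1, edgeR called 0 of the 9 for piericidin A without LPS or with it, and 0% of all genes in either comparison. At an unadjusted p under 0.05, 58 genes were found without LPS and 127 with LPS, none of them among the 9, and DESeq2 called 0 genes in both.

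**Figure D3:**
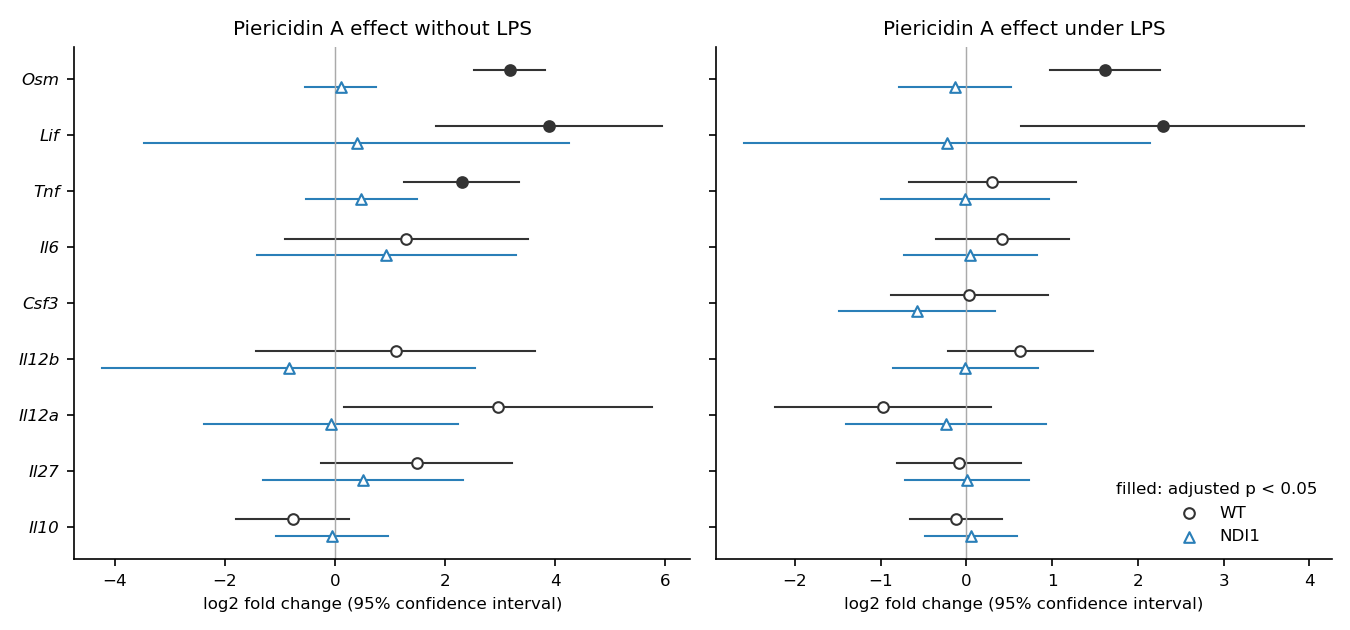
Log2 fold change of piericidin A with its 95% confidence interval for the 9 tested genes, without LPS (left) and under LPS (right), in WT (circles) and NDI1 (triangles), filled where the adjusted p was under 0.05. Csf3 is not drawn on the left, where it was at 0 or 1 count per group. Osm, Lif and Tnf stand to the right of 0 in WT without LPS, Osm and Lif under LPS, and the NDI1 intervals all include 0.

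Osm had the lowest adjusted p of the 9 genes for piericidin A in WT, with LPS and without it. In untreated WT, the 5 libraries had 3.66, 4.30, 4.63, 4.74 and 4.81 CPM, and with piericidin A they had 20.0, 34.4, 37.0, 46.7 and 62.7 CPM. The groups did not overlap, and each mouse rose, between 4.66-fold and 17.1-fold. The log2 fold change was 3.18 (SE 0.32, adjusted p = 4.7e-09). In WT given LPS, Osm was at 2.90, 5.13, 6.66, 6.81 and 8.92 CPM, and with piericidin A as well it was at 8.57, 13.0, 17.2, 19.0 and 34.9 CPM. The groups overlapped by a narrow margin, and each of the 5 mice rose, between 1.67-fold and 4.47-fold, for a log2 fold change of 1.62 (SE 0.32, adjusted p = 0.00054).

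In NDI1, Osm was not called for piericidin A. Untreated NDI1 had 3.43, 4.06, 4.66, 4.83 and 6.77 CPM of Osm, and with piericidin A it had 4.25, 4.56, 5.43, 5.63 and 5.70 CPM, a difference of 0.11 on the log2 scale with a 95% interval of -0.54 to 0.75. Under LPS, the values were 4.29, 4.94, 6.68, 8.78 and 10.0 CPM without and 2.93, 4.54, 6.88, 8.36 and 8.83 CPM with piericidin A, a difference of -0.13 with an interval of -0.79 to 0.52.

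Lif also rose in WT, at a much lower level. WT given piericidin A had 0.747, 0.767, 0.984, 2.88 and 5.08 CPM, above each of the 5 untreated WT libraries given before. The log2 fold change was 3.90 (SE 1.01, adjusted p = 0.0078), on 131 counts against 9 counts over 5 libraries. Under LPS and piericidin A, WT had 0.512, 2.00, 3.04, 5.09 and 25.0 CPM, and Lif was higher than with LPS alone in each of the 5 mice, between 2.40-fold and 13.2-fold. The log2 fold change was 2.29 (SE 0.81, adjusted p = 0.048), close to the threshold. The adjusted p was 0.11 with DESeq2, 0.00014 with the mouse as a block, and between 0.00014 and 0.18 over 19 alternatives, of which 8 passed. In NDI1, Lif was between 0 and 0.169 CPM with piericidin A and between 0 and 0.581 CPM with both agents.

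Mouse 496 had the highest Osm and Lif in WT under both piericidin A treatments, along with the highest neutrophil, stroma, dendritic cell, B cell, and mast cell and basophil marker sums. Without mouse 496, the log2 fold changes under piericidin A alone were 2.90 for Osm (adjusted p = 3.4e-08) and 4.10 for Lif (adjusted p = 0.0023), and under LPS they were 1.44 for Osm (adjusted p = 0.0035) and 2.79 for Lif (adjusted p = 0.018). In the analysis without both mouse 496 and mouse 503, 3 of the 9 genes rose with piericidin A alone in WT, where 4.52% of all genes rose, and 2 under LPS, where 4.53% did. Lif is in both counts, so they too are a description and are not read against these shares. Of 7 tested neutrophil markers, 0 passed edgeR's test for piericidin A in WT without or with LPS, with 1 and 0 of them at an unadjusted p under 0.05. With the mouse as a block, 5 of the 7 rose in each comparison, where 34.2% and 34.5% of all genes were called. In the fit without the block, the median log2 fold changes of the 7 were 1.53 and 1.36. Beyond leaving out these mice, their part in the cytokine values was not tested.

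Tnf rose with piericidin A alone in WT and was not called for it under LPS. Untreated WT lay between 7.99 and 38.7 CPM, and WT given piericidin A had 17.4, 30.5, 47.8, 177 and 204 CPM. The groups overlapped, but each mouse rose, between 2.18-fold and 9.10-fold, for a log2 fold change of 2.30 (SE 0.51, adjusted p = 0.0021). This level was still well under that with LPS. With both agents, WT had 915, 1693, 2006, 2446 and 2539 CPM, and the log2 fold change against LPS alone was 0.30 (SE 0.48, 95% interval -0.67 to 1.28, adjusted p = 0.71). In NDI1, Tnf had 7.75, 12.8, 30.5, 45.0 and 47.4 CPM with piericidin A, against 8.36 to 33.5 CPM untreated, a log2 difference of 0.48 with an interval of -0.53 to 1.49.

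**Figure D4:**
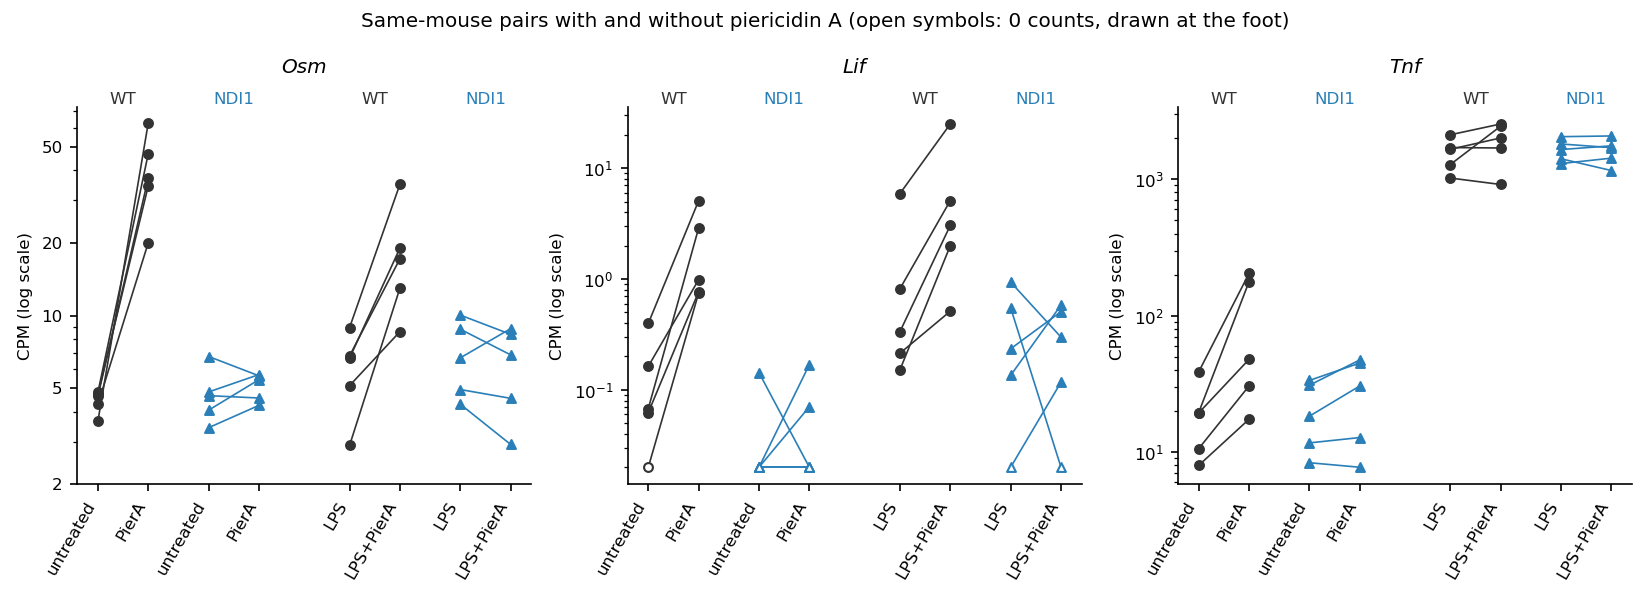
CPM of Osm, Lif and Tnf on log axes, with a line joining the libraries of one mouse without and with piericidin A, without LPS (left of each panel) and under LPS (right), for 5 WT mice (circles) and 5 NDI1 mice (triangles), and open symbols at the foot for 0 counts. All 5 WT lines rise for Osm and Lif in both settings and for Tnf without LPS, while NDI1 lines go either way.

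The other tested genes were not called for piericidin A in WT. Il12b under LPS was 0.63 higher on the log2 scale (SE 0.42, adjusted p = 0.31), with 94.3, 95.3, 202, 205 and 264 CPM against the 46.3 to 192 CPM given before. It was higher in 5 of 5 mice, between 1.21-fold and 2.31-fold, and passed with the mouse as a block (log2 fold change 0.70, SE 0.16, adjusted p = 0.0013), where 34.5% of all genes were called. Il6 under LPS was 0.42 higher (SE 0.38, adjusted p = 0.48) and higher in 4 of 5 mice. Il12a had a log2 fold change of -0.97 (SE 0.62, adjusted p = 0.29) and was lower in 4 of 5 mice. For Il27 the log2 fold change was -0.088, with a 95% interval of -0.81 to 0.64, and for Csf3 it was 0.035, with an interval of -0.88 to 0.95. Without LPS, Il6, Il12a, Il12b, Il27 and Csf3 were all under 2 CPM in every library, and Il10 stayed under that level too.

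Untreated or with LPS alone, edgeR called 0 of the 9 genes and 0% of all genes between the genotypes, DESeq2 called 0 genes, and at an unadjusted p under 0.05 there were 39 genes untreated and 141 with LPS, none of them among the 9. With piericidin A alone, 3 of the 9 genes were lower in NDI1, where 4.31% of all genes were lower: Osm fell by 2.97 on the log2 scale (SE 0.31, adjusted p = 2.3e-08), Lif fell by 5.23 (SE 1.18, adjusted p = 0.0034) and Tnf fell by 1.73 (SE 0.50, adjusted p = 0.027). The genotypes did not overlap for Osm and Lif and overlapped for Tnf. Lif passed the filter on low counts on 8 libraries, none of them NDI1, so it was tested because it was high in WT. Its calls, and the counts that hold it here and with LPS, are therefore a description and are not read against the share of all genes. Without mouse 496 the Lif value was -4.63 (adjusted p = 0.00064) and without mouse 503 it was -6.17 (adjusted p = 0.0078). The Tnf call was lost when mouse 447, 460, 461, 496 or 520 was left out, with an adjusted p of 0.12 without mouse 496, and 10 of 18 alternatives kept it. With LPS and piericidin A, 2 of the 9 were lower in NDI1, where 6.13% of all genes were lower: Osm fell by 1.56 (SE 0.31, adjusted p = 0.0010) and Lif fell by 4.48 (SE 0.96, adjusted p = 0.0019). Without mouse 496, these values were -1.20 (adjusted p = 0.0078) and -3.05 (adjusted p = 0.0059).

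Whether the effect of piericidin A itself differed between genotypes was tested with an interaction term. These comparisons use the same libraries as those just given. Without LPS, 1 of the 9 genes was called, where 1.27% of all genes were: the Osm effect differed by -3.07 on the log2 scale, NDI1 minus WT (SE 0.44, adjusted p = 3.5e-05). With the mouse as a block, 2 were called, Osm and Tnf (Tnf -1.62, SE 0.51, adjusted p = 0.039), where 8.96% of all genes were. Under LPS, 1 of the 9 was called, where 0.979% of all genes were: Osm again, at -1.75 (SE 0.45, adjusted p = 0.046). That call was close to the threshold, was kept in 8 of 19 alternatives, and was lost when any of 9 mice was left out in turn (adjusted p = 0.11 without mouse 496). With the mouse as a block it passed (adjusted p = 0.0054), and Il12b passed as well (-0.85, SE 0.23, adjusted p = 0.018), where 9.51% of all genes did. In the same blocked comparison, 2 of 7 tested neutrophil markers differed in the same direction, Ngp (-0.93, SE 0.25, adjusted p = 0.018) and S100a9 (-0.97, SE 0.32, adjusted p = 0.0499), as did 1 of 8 macrophage markers, Cd68 (-0.29, SE 0.091, adjusted p = 0.042). Their part in the Osm and Il12b values was not tested. For Lif, the difference between genotypes was -3.50 without LPS (SE 3.02, adjusted p = 0.73) and -2.52 under LPS (SE 1.45, adjusted p = 0.45), on 2 to 15 counts per NDI1 group.

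Piericidin A also altered the size of the LPS effect on Osm in WT. The LPS effect was 0.44 without and -1.11 with piericidin A, a change of -1.55 (SE 0.44, adjusted p = 0.030), and this was the only call among the 9 genes, where 4.75% of all genes were called. The call was lost without mouse 449, 496 or 520 (adjusted p = 0.069 without mouse 496). For Tnf, the LPS effect was 6.33 without and 4.33 with piericidin A, a change of -2.0 (SE 0.70, adjusted p = 0.091) that passed with the mouse as a block (adjusted p = 0.0071, with 17.4% of all genes called) and with DESeq2 (adjusted p = 0.046). In NDI1, none of the 9 was called for such a change by edgeR, with 0% of all genes called, 78 genes and 0 of the 9 at an unadjusted p under 0.05, and 0 genes by DESeq2.

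Other genes of these pathways were grouped by role. The lists were chosen with earlier results of these data known, and their counts are a description. Under LPS in WT, where piericidin A raised 7.81% and lowered 8.92% of all genes, with a median log2 fold change of -0.016, it raised 1 and lowered 2 of the 9 tested among 16 related ligands and subunits. Their median log2 fold change was -0.087. Tnfsf15, a TNF family ligand, rose from 33.5 CPM ± 14.3 to 92.7 CPM ± 57.3 (SD, n = 5), a log2 fold change of 1.47 (SE 0.35, adjusted p = 0.0037). Il18, an IL-1 family cytokine, fell by 0.92 (SE 0.22, adjusted p = 0.0039) and Il15, a lymphocyte growth factor, fell by 0.48 (SE 0.17, adjusted p = 0.049). Ebi3 was at 128 CPM ± 31.2 with LPS and 90.9 CPM ± 36.5 with both, lower in 5 of 5 mice, a log2 fold change of -0.50 (SE 0.24, adjusted p = 0.14) that passed with the block (adjusted p = 0.0079).

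Of 13 receptor chains, 1 rose and 1 fell with piericidin A under LPS in WT, with a median of -0.22. The shares of all genes were 7.81% and 8.92%. Il6st, which encodes gp130, was lowered by LPS from 225 CPM ± 31.6 to 92.2 CPM ± 8.77 in WT and was at 137 CPM ± 23.6 with both agents, a log2 fold change of 0.57 over LPS alone (SE 0.14, adjusted p = 0.0053), with no overlap between the groups. Tnfrsf1a, the main TNF receptor, fell by 0.27 (SE 0.10, adjusted p = 0.0499). Of 14 signal transducers, none rose and 5 fell in the same comparison, with a median log2 fold change of -0.26. Among them were the Janus kinase genes Tyk2 and Jak2, which fell by 0.59 (SE 0.15, adjusted p = 0.0072) and 0.57 (SE 0.18, adjusted p = 0.024), Birc2, which encodes a ubiquitin ligase of the TNF receptor complex and fell by 0.55, and the adaptor gene Traf2, which fell by 0.41.

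Of 10 genes for TNF shedding and cytokine mRNA decay or stability, 3 rose and none fell with piericidin A under LPS in WT, with a median of -0.11. In that comparison, 7.81% of all genes rose and 8.92% fell. Zfp36l2 rose from 76.8 CPM ± 22.6 to 186 CPM ± 23.7 with no overlap, a log2 fold change of 1.28 (SE 0.20, adjusted p = 3.8e-05). Its relative Zfp36l1 rose by 1.41 (SE 0.39, adjusted p = 0.011), and both encode proteins that bind AU-rich elements and promote mRNA decay. Arid5a, whose product stabilizes Il6 mRNA, rose by 0.57 (SE 0.20, adjusted p = 0.045). Zfp36, which encodes tristetraprolin, a decay factor of Tnf mRNA, was at -0.16 under LPS (SE 0.19, adjusted p = 0.59) and rose by 1.20 without LPS (SE 0.19, adjusted p = 3.5e-05), from 126 CPM ± 24.9 to 288 CPM ± 113. Without LPS, where piericidin A raised 7.79% and lowered 7.05% of all genes, 5 of these 10 genes rose and none fell.

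Of 15 transcription regulators of cytokine genes, 2 rose and 3 fell with piericidin A under LPS in WT, with a median of -0.094. Of all genes, 7.81% rose and 8.92% fell. Cebpd, a C/EBP factor induced by LPS, fell by 1.60 (SE 0.30, adjusted p = 0.00038), from 440.2 CPM ± 206 to 145 CPM ± 40.4. Maf, an activator of Il10, fell by 1.10 (SE 0.23, adjusted p = 0.00089), from 1003 CPM ± 198 to 467 CPM ± 245, while Il10 was not called. Pou2f2, which encodes the octamer factor OCT2, fell by 1.81 (SE 0.34, adjusted p = 0.00035), and it overlaps another annotated gene. Irf8, a macrophage interferon regulatory factor, rose by 1.16 (SE 0.28, adjusted p = 0.0037) and Nfil3 rose by 0.95 (SE 0.23, adjusted p = 0.0043). Of 10 genes known as targets of IL-10 and STAT3, 2 rose, Nfil3 and Ddit4, and 2 fell, Il4ra and Sbno2, with a median of 0.066. Ddit4, an inhibitor of mTORC1 that many stresses induce, rose by 2.43 (SE 0.46, adjusted p = 0.00042). Without LPS in WT, where piericidin A raised 7.79% and lowered 7.05% of all genes, it raised 7 and lowered 2 of the 15 regulators. It raised 6 of the 10 targets, among them Socs3, the feedback inhibitor of gp130 signalling. In NDI1, edgeR called 0 genes of any of these lists for piericidin A under LPS, DESeq2 called 0 genes in all, and at an unadjusted p under 0.05 there were none in any of the 6 lists.

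Osm and Lif are neighbours on chromosome 11, at chr11:4236420-4241026 and chr11:4257557-4272514 on the same strand, 16530 bases apart and with no gene of the count table between them. Of 5 other tested genes within 100000 bases, chosen by position, Tbc1d10a rose with piericidin A in WT by 2.01 without LPS (SE 0.21, adjusted p = 9.7e-09) and by 1.03 under LPS (SE 0.22, adjusted p = 0.0016). Castor1, the nearest on the Osm side, rose by 0.93 without LPS (SE 0.29, adjusted p = 0.025) and was at 0.098 under LPS. Rnf215 fell by 0.64 under LPS (SE 0.14, adjusted p = 0.0018), while Sf3a1 and Ccdc157 were not called in either comparison.

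Over the 20 libraries with LPS, which share 10 mice, the genes whose log2 CPM ran most closely with Osm were Csrnp1 (r = 0.937) and Rabgef1 (r = 0.932), and with Lif they were Slc16a6 (r = 0.894) and Lbh (r = 0.870). For Tnf they were Arhgef3 (r = 0.954) and Tlr7 (r = 0.927), for Il6 Rnd3 (r = 0.908) and Nptn (r = 0.898), and for Il10 Hnrnpc (r = 0.910) and Hprt (r = 0.901). Il12b ran closest with Dnajb6 (r = 0.922) and Ttc39c (r = 0.916), Il12a with Grk2 (r = 0.891) and Acp2 (r = 0.890), Il27 with Crlf3 (r = 0.969) and Zbtb5 (r = 0.920), and Csf3 with Fosl2 (r = 0.869) and Slc2a1 (r = 0.867). Between members, r was highest for Il6 with Il12b (0.878), Il12b with Il27 (0.826), Il12b with Osm (0.824) and Lif with Osm (0.818). These values are a description over libraries that share mice and treatments.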

How the data were processed

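RNA-seq of polyA-selected RNA was made from 40 BMDM libraries of 10 mice in 8 groups. Per the study's methods, Trimmomatic, STAR (mm10) and HTSeq (exons) were used for trimming, alignment and counting, and the authors deposited raw counts per gene. The annotation release and use of strand are not given in the sources used here, which leaves overlapping genes less certain. A column of undetermined reads was not used (1 column, 6.51% of all counts). Symbols matched 42462 of 43430 identifiers.

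The test was edgeR 4.0.16 under R 4.3.3 (filterByExpr, TMM, 1 mean per group, glmQLFit and glmQLFTest over the 40 libraries, Benjamini-Hochberg adjustment over 11853 genes, threshold 0.05). A standard error is the log2 fold change over the square root of F. Log2 CPM used a prior count of 2. The 17 comparisons, 9 tested members and 19 alternatives included DESeq2 1.42.0, limma 3.58.1 (voom), other normalization and filters, the mouse as a block and leaving out each mouse. Libraries with the same number come from the same mouse, and their deviations from group means correlated at 0.453 on average over 60 pairs (-0.107 over 240 pairs of different mice). Floors of 3 counts and counting intervals cover counting error only, since PCR copies cannot be told apart from independent molecules. P-values measure the spread between these libraries, 1 per mouse and treatment.

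The members and gene lists were chosen with earlier results of these data known. Named from each list were up to 4 genes with the largest change among those called for piericidin A under LPS in WT, together with Ebi3, Il6st and Zfp36, and per tested member the 2 other genes with the highest correlation over the LPS libraries and a mean log2 CPM of at least 1. One gene that this rule names is not reported here. Genes near Osm and Lif, Traf2, Socs3, Lck and Apobr were named after their values were seen, and so was the comparison without both mice that stood apart. Coordinates are on mm10 (GRCm38), exon lengths from GENCODE M21.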

Additional observations from a re-analysis of the deposited data

Results flagged for a closer look

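Among 50 groups of libraries with a median above 3 counts, 3 had a library far from the other 4, where chance gives about 1 in 20. That number is near the share chance gives, and the 3 are listed as a description. Lif in WT given LPS and piericidin A was at 25.0 CPM in mouse 496, and the next value was 5.09 CPM. Csf3 in NDI1 given LPS was at 7.50 CPM in mouse 503, with 3.51 CPM next. Il23a in NDI1 given LPS and piericidin A was at 1.19 CPM in mouse 503, with 0.507 CPM next, on 8 counts. Mice 496 and 503 are those with the high neutrophil marker sums, whose part in these values was not tested.

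The effect of piericidin A on Osm differed between genotypes by the interaction test of edgeR, by -3.07 on the log2 scale without LPS (adjusted p = 3.5e-05) and by -1.75 under LPS (adjusted p = 0.046). All 19 alternatives kept the call without LPS, and 8 of 19 kept the call under LPS.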

How the results depend on the processing

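Of 51 member effects that passed the test in at least 1 analysis, 903 values under the alternatives kept direction and side of the threshold, 37 lost the call, 20 gained it and none reversed. The count of members called moved by over 1.5 times in 4 comparisons. For piericidin A under LPS in WT it was 2, and it was 1 without a filter, with only the groups compared and with DESeq2, and between 1 and 2 when a mouse was left out, the call lost being that of Lif. For the genotype difference of the piericidin A effect it was 1, and 2 with the mouse as a replicate block. For that difference under LPS it was 1, and 0 with only the groups compared, 0 without both mice 496 and 503, 2 with the replicate block, and between 0 and 1 when a mouse was left out. For the change that piericidin A made to the LPS effect in WT it was 1, and 0 with only the groups compared and without both mice, 2 with the replicate block, with voom and a random block and with DESeq2, and between 0 and 1 when a mouse was left out. The replicate block changed no single call other than those given with the results, and could not be fitted to NDI1 against WT, which differ between mice. The cause of these changes was not tested. With upper-quartile factors the median of all genes moved by up to 0.33 on the log2 scale, and no count of members called changed. Neither did any with an added minimum of 1 on the absolute log2 fold change. Among 102 effects called in no analysis, 136 of 1889 values changed sign. Levels under RLE factors or plain CPM moved by over 1 SD in 6 of 160 cases. A filter at a mean CPM of at least 1 left no value for Il12a. Depth limits Lif in NDI1, Il12a and Il23a, which had few counts per library.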
